A study of Mus musculus with 12 samples.

Results

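The cytochrome P450 genes on the array were examined across 12 mouse RNA samples. They were taken as every non-control probe whose accession maps to a gene symbol made of Cyp, a number, a letter and a number. That gave 89 genes with 110 probes, of 20659 genes with a symbol and a probe. A gene was kept for statistics when its Cy5 signal was well above background, by the scanner software's own flag, on at least 2 arrays, and 66 genes passed. One probe, the brightest, stood for each gene. A further 9 P450 symbols that begin with Cyp but have another form (Cyp51, Cyp2ab1, Cyp3a41b, Cyp4a12a, Cyp4a12b, Cyp4a30b and the pseudogenes Cyp2d37-ps, Cyp4f41-ps and Cyp4b1-ps2) were not counted. P450 genes with symbols that do not begin with Cyp were not counted either.

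Each array compared 1 sample, labelled with Cy5, with a pool of all conditions, labelled with Cy3. The arrays covered Eng+/- samples, heterozygous for the gene of the Tgf-β and Bmp co-receptor endoglin, and wt samples. Either genotype was sampled at day 50 and at day 90, each time without a named treatment, with clp and with tpa, and each of the 12 combinations had 1 array. What clp and tpa stand for, what the days count, the strain, the age and the number of animals behind a sample are not given in the sources used here. Both wt arrays with no named treatment have the word pool in their titles. The series title concerns the hair follicle cycle, whereas the sample labels name E14 embryonic stem cells. All 9 measured epidermal marker genes and 17 of 18 hair shaft and inner root sheath markers were above background on all 12 arrays. Of 5 embryonic stem cell markers, 3 exceeded background on every array (Utf1, Nanog and Dppa5a), Pou5f1 did on 1 and Zfp42 on none. Of 10 liver cell markers, 4 were above background on all 12 arrays (Alb, Apoa2, Serpina1a and Tat) and Apoa1 was on none.

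Cytochromes P450 are heme enzymes that insert oxygen into lipids, steroids, vitamins and foreign compounds, mostly in the endoplasmic reticulum with electrons from the reductase Por. Families are numbered by sequence similarity, and many members of the Cyp2, Cyp3 and Cyp4 families lie in tandem arrays of closely related genes. In skin, P450 enzymes are known for the breakdown of retinoic acid (Cyp26 enzymes), the activation and breakdown of vitamin D (Cyp2r1, Cyp27b1 and Cyp24a1), the making of barrier lipids and signalling lipids from fatty acids, and the oxidation of pollutants through Cyp1 enzymes, which are induced by the aryl hydrocarbon receptor Ahr and its partner Arnt.

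The promoters of 5 of the genes that differed between clp and tpa are printed as examples. Promoters of other such genes, among them Cyp4b1 and Cyp11a1, were matched and are not printed. The sequences are RefSeq's for assembly GRCm38.p6, 250 bases before to 50 after the start of the gene, and are given 5′ to 3′ on the strand of the gene. They lie at chr9:57697363-57697662 (plus strand) for Cyp1a1, chr7:27119705-27120004 (plus strand) for Cyp2f2, chr7:25816476-25816775 (minus strand) for Cyp2s1, chr5:145345019-145345318 (plus strand) for Cyp3a57 and chr5:146079008-146079307 (plus strand) for Cyp3a59. Capitals mark matches, on either strand, to the core of the Ahr-Arnt element (GCGTG or CACGC), to a nuclear receptor half-site (AGGTCA or TGACCT) and to a TATA box (TATAAA or TTTATA).
Cyp1a1: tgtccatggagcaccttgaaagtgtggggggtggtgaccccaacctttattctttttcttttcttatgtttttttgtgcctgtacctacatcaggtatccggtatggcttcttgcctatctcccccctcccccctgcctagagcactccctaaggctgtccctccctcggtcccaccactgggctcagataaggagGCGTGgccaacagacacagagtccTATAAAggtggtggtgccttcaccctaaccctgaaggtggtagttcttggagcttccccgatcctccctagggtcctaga
Cyp2f2: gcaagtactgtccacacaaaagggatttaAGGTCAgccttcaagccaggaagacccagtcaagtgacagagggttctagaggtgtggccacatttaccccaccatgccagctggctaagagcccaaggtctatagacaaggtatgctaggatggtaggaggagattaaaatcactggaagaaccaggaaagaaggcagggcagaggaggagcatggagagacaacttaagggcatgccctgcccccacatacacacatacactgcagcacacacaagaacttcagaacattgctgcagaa
Cyp2s1: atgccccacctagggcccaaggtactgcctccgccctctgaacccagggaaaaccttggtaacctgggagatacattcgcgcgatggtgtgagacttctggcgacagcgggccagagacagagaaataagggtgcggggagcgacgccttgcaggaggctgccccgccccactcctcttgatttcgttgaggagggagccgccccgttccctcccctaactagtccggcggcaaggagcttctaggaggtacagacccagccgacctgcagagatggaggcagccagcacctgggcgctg
Cyp3a57: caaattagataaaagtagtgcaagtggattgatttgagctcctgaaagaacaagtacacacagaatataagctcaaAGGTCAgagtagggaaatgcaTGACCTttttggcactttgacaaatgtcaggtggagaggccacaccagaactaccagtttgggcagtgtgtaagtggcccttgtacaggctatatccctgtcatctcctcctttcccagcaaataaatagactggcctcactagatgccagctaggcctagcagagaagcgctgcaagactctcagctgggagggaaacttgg
Cyp3a59: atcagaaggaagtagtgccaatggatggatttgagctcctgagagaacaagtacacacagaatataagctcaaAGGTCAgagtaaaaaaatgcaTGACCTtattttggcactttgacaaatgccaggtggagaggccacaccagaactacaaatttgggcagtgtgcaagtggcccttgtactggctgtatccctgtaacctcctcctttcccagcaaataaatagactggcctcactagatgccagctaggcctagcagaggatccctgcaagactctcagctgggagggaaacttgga

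The Cyp1a1 promoter held 1 Ahr-Arnt core and 1 TATA box, the Cyp2f2 promoter held 1 half-site, and the Cyp2s1 promoter held none of these motifs. Cyp3a57 and Cyp3a59, tandem paralogs, held 2 half-sites each, and their promoters were identical in 275 of 303 aligned columns (90.8%). RefSeq promoters were matched for 68 of the 89 genes (78 promoters). The Ahr-Arnt core was in 15 of these 78 (19.2%) and in 32.4% of all 32851 promoters. The half-site was in 26.9% of the P450 promoters and 16.3% of all, and the TATA box in 37.2% and 13.6%. A match to these letters is a description and not a bound site. Cyp2g1, Cyp4a10, Cyp4a31 and Cyp2c23 are named only, because no RefSeq promoter was matched for them.

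Most P450 genes of the array gave a signal in these samples, though a smaller share than of all genes. Of the 89 P450 genes with a probe 66 were tested, against 17164 of all 20659 genes with a symbol and a probe. Of the 66 genes tested, 45 were above background on all 12 arrays. In family 2, which holds most of the xenobiotic-metabolising members, 34 of 44 genes were tested. The numbers were 12 of 17 in family 4 (fatty acid hydroxylases), 6 of 7 in family 3 (steroid and drug hydroxylases), 2 of 3 in family 1, 2 of 3 in family 26, 2 of 3 in family 11 (steroid synthesis) and 2 of 2 in family 27 (sterol and vitamin D hydroxylases). The single genes with a probe in families 17, 20, 24, 39 and 46 were tested as well. Some genes best known from liver, steroid glands or ovary were below the limit. Cyp1a2, Cyp8b1 of bile acid synthesis, Cyp11b2 of aldosterone synthesis and Cyp19a1, the aromatase, were above background on none of the 12 arrays. The same held for Cyp26c1, a retinoic acid hydroxylase. Others known from such tissues were above background on all 12 arrays, among them Cyp2b10 of liver and the steroidogenic Cyp11a1 and Cyp17a1.

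In all, 18 genes were above background on none of the arrays and 4 on exactly 1, which put them just outside the limit (Cyp2c29, Cyp2c54, Cyp2c68 and Cyp7a1, the rate-limiting enzyme of bile acid synthesis). Cyp4x1 lay just inside it with 2 arrays. Cyp11b1 and the retinoic acid hydroxylase Cyp26a1 were above background on 3, and the vitamin D-degrading Cyp24a1, Cyp2b23 and Cyp3a16 on 4. Cyp21a1, a steroid hydroxylase of the adrenal cortex, was left out because its bright probe carried an outlier flag.

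The 66 genes varied about as much from array to array as other genes. The range of the log2 ratio to the pool over the 12 arrays had a median of 0.84 for the P450 genes and 0.86 for all 25082 features tested, and it exceeded 1 for 30 of the 66 (45.5%) and for 39.2% of all features. Cyp2g1 had the widest range of the 66, 7.07, followed by Cyp4x1 with 3.07, Cyp2e1 with 2.37, Cyp2f2 with 2.26, Cyp26b1 with 2.21 and Cyp1a1 with 2.20. Cyp4x1, an orphan P450, was above background on only 2 arrays, so its range rests on them. Cyp17a1, the enzyme of androgen synthesis, Cyp2r1 and Cyp2d11 lay more than 1 log2 unit below the pool on all 12 arrays. The pool was made of all conditions, so a ratio below it on every array is not read here as low expression. The raw Cy5 signal of Cyp17a1 ran from 411 to 11925 scanner units. The cause of these ratios was not tested.

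**Figure D1:**
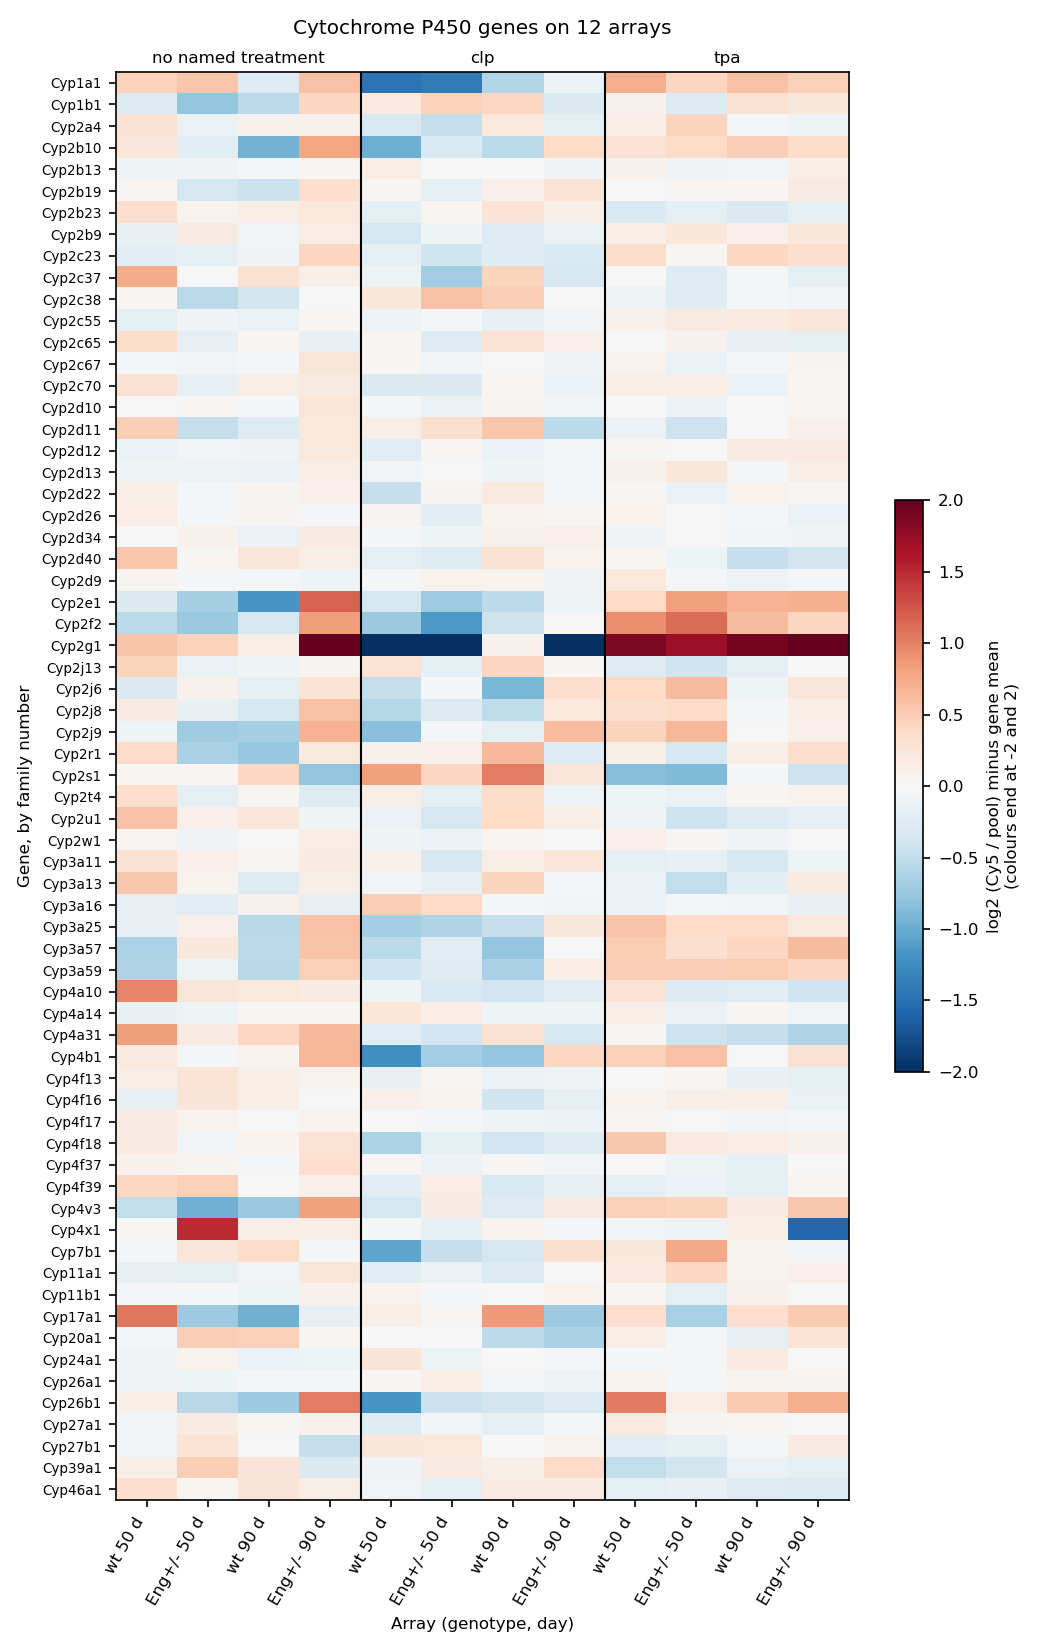
Log2 ratio of each of the 66 P450 genes to the pool on each of the 12 arrays, shown as the difference from the gene's own mean (colour, ending at -2 and 2). Genes run by family number and arrays by treatment, day and genotype; Cyp2g1 spans 7.07 log2 units, with its lowest values in 3 of the 4 clp arrays.

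Eng itself was lower in Eng+/- than in wt in 5 of 6 matched pairs (log2 -0.77 ± 0.26 SE, limma adjusted p = 0.331), and in the pair of tpa at 50 days it was higher in Eng+/- (-0.49 against -1.13). Median Cy5 signals lay between 166.5 and 573 scanner units and the share of spots above background between 65.7 and 77.7%. Each treatment level lay on a slide of its own with 4 arrays, so slide and treatment cannot be told apart. Both genotypes and both days lay on each slide. In such whole samples, fewer cells of a type and less RNA per cell cannot be told apart.

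The comparison of clp with no named treatment asked which P450 genes differed with clp, over both genotypes and both days. Cyp2g1 and Cyp1a1 were lower in clp, together with the fatty acid hydroxylases Cyp4a10 and Cyp4a31, and Cyp3a16 was slightly higher. These 5 of 66 genes passed an adjusted p of 0.05 (limma, Benjamini-Hochberg over all features tested), 1 higher and 4 lower, which is 7.58% of the P450 genes, against 7.77% of all features (4.27% higher and 3.5% lower). At an unadjusted p below 0.05 there were 15 (22.7%), against 27% of all features. The 4 clp arrays lay wholly apart from the 4 arrays with no named treatment for 4 P450 genes (6.06%), all lower in clp, against 9.27% of all features. The median difference was -0.12 over the P450 genes and 0.01 over all features, with 22 positive and 44 negative.

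Cyp2g1, described in rodents as a steroid- and odorant-oxidising P450 of the olfactory mucosa, showed the largest difference of the 66. With no named treatment its log2 ratios to the pool were 0.80 (Eng+/-) and -1.19 (wt) at 90 days, and -0.86 (Eng+/-) and -0.76 (wt) at 50 days. In clp they were -5.82 and -1.24 at 90 days and -5.91 and -3.57 at 50 days, in the same order. All 4 clp arrays lay below all 4 arrays with no named treatment, but the wt clp array at 90 days lay only just below the lowest of them. The difference was -3.63 ± 0.87 SE on the log2 scale, a 12.4-fold lower level (n = 4 arrays against 4, limma adjusted p = 0.0405), and the matched pairs spanned -6.62 to -0.05.

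The Cyp2g1 probe was above background in both channels on all 12 arrays, and its Cy5 spot was saturated on the Eng+/- array with no named treatment at 90 days, so that value is a lower limit. The call was lost when any 1 of 11 arrays was left out, every array except wt with no named treatment at 90 days, with differences from -4.78 to -2.49 and adjusted p from 0.0521 to 0.120, and with no intensity trend (adjusted p = 0.0542 in limma).

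Cyp1a1, the Ahr-induced hydroxylase of polycyclic aromatic compounds, had log2 ratios of 0.74 (Eng+/-) and -0.10 (wt) at 90 days and 0.73 and 0.63 at 50 days with no named treatment. In clp they were 0.05 and -0.42 at 90 days and -1.23 and -1.31 at 50 days. Both clp arrays at 50 days lay below every other array, while those at 90 days overlapped the wt array with no named treatment. The difference was -1.23 ± 0.19 SE (2.34-fold lower, lower in 4 of 4 pairs, limma adjusted p = 0.0174). It no longer passed without the wt clp array at 90 days, the Eng+/- clp array at 50 days or the wt clp array at 50 days (adjusted p from 0.0512 to 0.0716), or with median centring in place of loess (-1.07, adjusted p = 0.0874 in limma).

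The other 3 calls were smaller. Cyp4a10 fell by 0.64 ± 0.17 SE (adjusted p = 0.0485 in limma) and its clp values, from -2.19 to -1.89, lay below those with no named treatment, from -1.65 to -0.83. A second Cyp4a10 probe gave a difference of -0.03. Cyp4a31 fell by 0.67 ± 0.16 SE (adjusted p = 0.0403 in limma), with values from -1.83 to -1.14 in clp and from -1.28 to -0.61 with no named treatment, which overlap. Both are closely related paralogs, and whether their probes tell them apart was not tested. With the Cy5 channel alone, both differences turned positive (0.67 for Cyp4a10 and 0.63 for Cyp4a31), and with median centring they were -0.05 for Cyp4a10 and 0.04 for Cyp4a31. With Agilent's processed signals neither passed (adjusted p of 0.147 and 0.172 in limma), nor did Cyp4a10 with every probe or the mean of its probes (0.0590 and 0.0924).

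Cyp3a16, a steroid hydroxylase known from fetal mouse liver, was 0.32 ± 0.06 SE higher on the log2 scale in clp (adjusted p = 0.0253 in limma, higher in 3 of 4 pairs). Its signal was above background on 3 clp arrays and 1 array with no named treatment, and the pool was above background on none, so its ratios are close to the background. The call of Cyp3a16 was lost without either array of no named treatment at 50 days or any 1 clp array, that of Cyp4a31 without any array but wt with no named treatment at 90 days, and that of Cyp4a10 without any array but the Eng+/- arrays of no named treatment at 50 days and of clp at 90 days (adjusted p from 0.0529 to 0.162). Cyp3a16 also lost its call with median centring, Cy5 alone and no intensity trend (adjusted p of 0.496, 0.105 and 0.0605 in limma). No P450 gene passed without the wt clp array at 90 days, the Eng+/- clp array at 50 days or the wt clp array at 50 days, 1 passed without the wt array with no named treatment at 50 days, 2 without the Eng+/- one at 50 days or any 1 of the 4 tpa arrays, and 3 without the Eng+/- clp array at 90 days. Without 1 array, the share of all features passing ran from 0.0120% (without the wt clp array at 50 days) to 17.98% (without the Eng+/- array with no named treatment at 90 days, where 6 P450 genes passed).

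**Figure D2:**
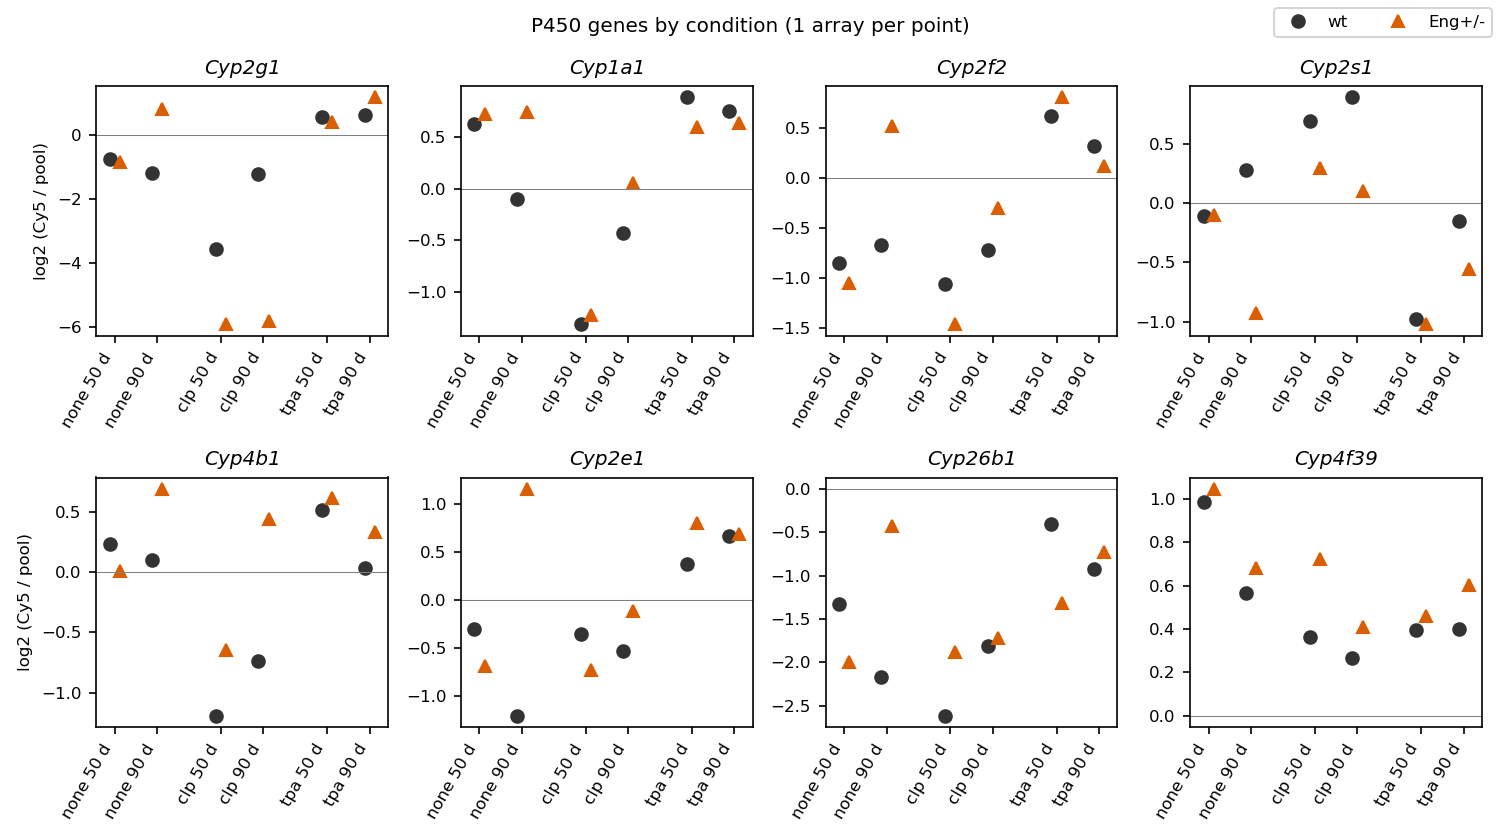
Log2 ratio to the pool (vertical axis) of 8 P450 genes in the 6 conditions, 1 array per point, with wt as circles and Eng+/- as triangles. The vertical scale differs between panels; for Cyp2g1 the clp arrays run from -5.91 to -1.24 and the tpa arrays from 0.40 to 1.16.

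No P450 gene passed the threshold in tpa against no named treatment, where 0.132% of all features did. At an unadjusted p below 0.05 there were 19 of 66 P450 genes (28.8%), against 26% of all features, and the groups did not overlap for 7 (10.6%), against 11.2%. The 5 genes with the smallest p were Cyp4a31 (-0.88 ± 0.16 SE on the log2 scale), Cyp2b23 (-0.43 ± 0.09), Cyp2c55 (0.26 ± 0.05), Cyp2u1, a fatty acid hydroxylase (-0.44 ± 0.09), and Cyp46a1, the cholesterol hydroxylase of brain (-0.41 ± 0.09), with limma adjusted p from 0.0606 to 0.0761. Each had the same sign in 4 of 4 pairs. Cyp2b23 was above background on 2 tpa arrays and on no array without named treatment, and Cy5 alone gave a difference of the opposite sign, 0.19. Cy5 alone also reversed the sign of Cyp4a31 (0.19), and median centring reversed that of Cyp2c55 (-0.33). Cyp2c55 was above background on 4 tpa arrays and 1 array without named treatment. The difference of Cyp2g1 was 1.18 ± 0.87 SE (adjusted p = 0.404 in limma) and that of Cyp1a1 0.22 ± 0.19 (adjusted p = 0.478 in limma).

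One array decided this count. Without the Eng+/- array with no named treatment at 90 days, 17 P450 genes passed, 10 higher and 7 lower in tpa, and 19.8% of all features did. Among those higher were Cyp2e1, the ethanol-oxidising P450 (log2 1.48 ± 0.20 SE, limma adjusted p = 0.00433), Cyp2f2, known for the activation of naphthalene in mouse lung (1.28 ± 0.19, adjusted p = 0.00507), Cyp4v3, a fatty acid hydroxylase (1.10 ± 0.21), Cyp26b1 (1.10 ± 0.29) and Cyp1b1 (0.69 ± 0.20). Cyp4a31 and Cyp2s1 were among those lower (-0.72 ± 0.15 and -0.68 ± 0.18). Without the Eng+/- array with no named treatment at 50 days, 3 passed (1.28% of all features did).

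That array stood apart for these genes. The log2 ratios of Cyp2e1 with no named treatment were 1.16 on it and -1.21, -0.69 and -0.31 on the other arrays, and 0.69, 0.67, 0.80 and 0.38 in tpa. Those of Cyp26b1 were -0.43 on it and -2.17, -2.0 and -1.33 on the others, and -0.73, -0.92, -1.31 and -0.41 in tpa. In both genes this single array lay with the tpa arrays and the other arrays with no named treatment lay lower, for Cyp26b1 only just so on the wt array at 50 days. On the same array the 18 markers of hair shaft and inner root sheath had a median of -4.03 log2 units relative to each gene's mean over arrays, the lowest of the 12, followed by the tpa arrays at 50 days with -3.40 (wt) and -2.93 (Eng+/-). The array that stood apart also had a median Cy5 signal of 573 scanner units, with 75.15% of spots above background. The other arrays with no named treatment had 217, 166.5 and 213 (65.7 to 70.7%), and the tpa arrays 403 to 557. The part of the hair markers and of signal level in the result was not tested.

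The comparison of clp with tpa held more P450 genes past the threshold than either comparison with no named treatment, and most were lower in clp. Cyp2g1, Cyp1a1 and Cyp2f2 were lower by 28.1-fold, 2.73-fold and 2.54-fold, and Cyp2s1 was 2.25-fold higher. Of the 66 genes 12 passed the adjusted p of 0.05, 10 lower and 2 higher, which is 18.2% of them, against 8.16% of all features, 4.54% of all being lower and 3.62% higher. The median difference was -0.04 over the P450 genes and 0.05 over all features, and 25 were positive and 41 negative. The values of the clp and tpa groups did not overlap for 16 P450 genes (24.2%), 13 lower and 3 higher in clp, against 16.2% of all features (7.97% lower and 8.24% higher). At an unadjusted p below 0.05 there were 28 (42.4%), against 24.8%. At least a 2-fold difference was seen for 6 of the 66 (9.09%) and for 3.41% of all features.

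Among the P450 genes of xenobiotic oxidation, Cyp2g1 had tpa values of 1.16 and 0.60 at 90 days and 0.40 and 0.56 at 50 days (Eng+/- and wt each), all above the 4 clp values given before. Its difference was -4.81 ± 0.87 SE on the log2 scale (limma adjusted p = 0.0157), lower in 4 of 4 pairs, which spanned -6.98 to -1.84. The call was lost without the Eng+/- clp array at 50 days, the Eng+/- tpa array at 90 days or the wt tpa array at 50 days (adjusted p from 0.0604 to 0.0748), and without 1 array the difference ranged from -5.95 (without the wt clp array at 90 days) to -3.67 (without the Eng+/- clp array at 90 days).

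Cyp1a1 was even across tpa, with 0.64, 0.76, 0.60 and 0.89, and the clp arrays all lay lower. The difference of -1.45 ± 0.19 SE (adjusted p = 0.00758 in limma) passed under all 20 alternatives tried, with values from -1.95 to -1.31. Of the 12 calls it was the only one to do so.

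Cyp2f2 had log2 ratios of -0.30 and -0.72 at 90 days and -1.46 and -1.06 at 50 days in clp, and of 0.12, 0.32, 0.80 and 0.61 in tpa, again Eng+/- and wt in turn. The groups did not overlap, and with no named treatment the gene lay at 0.52 on the Eng+/- array at 90 days, where its Cy5 spot was saturated, and between -1.05 and -0.67 on the others. The difference between clp and tpa was -1.35 ± 0.25 SE (adjusted p = 0.0179 in limma).

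Cyp2s1, an extrahepatic P450 of epithelia that acts on retinoids and is induced through Ahr, ran the other way. Its clp values were 0.10 and 0.89 at 90 days and 0.29 and 0.69 at 50 days, and its tpa values were -0.55, -0.15, -1.02 and -0.98. All clp values were higher than all tpa values, by 1.17 ± 0.21 SE on the log2 scale (limma adjusted p = 0.0153). Against no named treatment Cyp2s1 differed by 0.71 in clp and -0.46 in tpa, neither past the threshold. The calls of Cyp2f2 and Cyp2s1 were both lost without the wt clp array at 90 days, the Eng+/- clp array at 50 days, either tpa array at 90 days or the wt tpa array at 50 days, with adjusted p from 0.0519 to 0.0966.

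Among the steroid and drug hydroxylases of family 3, Cyp3a57 had clp values of 1.07, 0.28, 0.86 and 0.54 and tpa values of 1.70, 1.51, 1.39 and 1.58. Cyp3a59 had 0.98, 0.19, 0.58 and 0.44 in clp and 1.28, 1.35, 1.33 and 1.33 in tpa. In both genes every clp array lay below every tpa array, and the wt clp array at 90 days was the lowest. The differences were -0.86 ± 0.21 SE and -0.77 ± 0.19 SE (limma adjusted p of 0.0388 and 0.0408), and a second Cyp3a59 probe gave -1.01. The 2 genes are close paralogs and whether their probes separate them was not tested. Cyp3a25, a further paralog, differed by -0.76 ± 0.22 (adjusted p = 0.0653 in limma).

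Cyp3a16 passed with a fitted log2 difference of 0.30 ± 0.06 SE (adjusted p = 0.0247 in limma). It was above background on 3 clp arrays and no tpa array, so no fold is given.

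Among the lipid-oxidising members, Cyp4b1, which hydroxylates fatty acids and activates several toxins, had clp values of 0.45, -0.74, -0.65 and -1.19 and tpa values of 0.34, 0.03, 0.62 and 0.52. The Eng+/- clp array at 90 days lay among the tpa arrays and the other 3 clp arrays lay below them. The difference was -0.91 ± 0.22 SE (adjusted p = 0.0363 in limma, lower in 3 of 4 pairs). Cyp2c23, an arachidonic acid epoxygenase known from mouse kidney, was above background on no clp array and on all 4 tpa arrays, so no fold is given, and its fitted log2 difference was -0.57 ± 0.12 SE (adjusted p = 0.0249 in limma). Cyp2c55 differed by -0.26 ± 0.05 SE (adjusted p = 0.0226 in limma) and Cyp2b9 by -0.37 ± 0.07 SE (adjusted p = 0.0146 in limma), both lower in 4 of 4 pairs. For these last 3 genes and Cyp3a16 the pool was above background on no array, so the ratios rest on the Cy5 signal, and with median centring the difference of Cyp2c55 was 0.18.

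Of the steroidogenic members, Cyp11a1, which cleaves the side chain of cholesterol at the start of steroid synthesis, passed. Its clp values were 0.30, 0.03, 0.16 and 0.07 and its tpa values 0.40, 0.37, 0.71 and 0.50, which do not overlap. The difference was -0.36 ± 0.09 SE (adjusted p = 0.0388 in limma). Cyp17a1 differed by -0.07 ± 0.40 SE and Cyp11b1, of corticosteroid synthesis, by 0.04 ± 0.07, neither past the threshold.

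Leaving out single arrays changed this comparison as well. The number passing was 1 without the wt tpa array at 50 days, 2 without the wt clp array at 90 days, the Eng+/- clp array at 50 days or either tpa array at 90 days, 6 without the wt clp array at 50 days and 7 without the Eng+/- clp array at 90 days. The largest number without 1 array was 17, without either array of no named treatment at 90 days. The share of all features passing moved as well, from 0.813% without the wt tpa array at 50 days to 11.9% without the Eng+/- array with no named treatment at 90 days. Cyp2b9 lost its call without 3 single arrays (wt clp and wt tpa at 90 days, wt tpa at 50 days), Cyp11a1 and Cyp3a59 without each of the 8 clp and tpa arrays, and Cyp3a57, Cyp3a16, Cyp2c23, Cyp2c55 and Cyp4b1 without each of 7 of them, with adjusted p up to 0.198. The exception was Eng+/- tpa at 50 days for Cyp3a57, Cyp3a16 and Cyp2c23, wt clp at 50 days for Cyp2c55 and Eng+/- clp at 90 days for Cyp4b1.

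Other processing ended some of these calls too. Median centring ended those of Cyp2b9 (-0.12, adjusted p = 0.936 in limma), Cyp2c23, Cyp2f2, Cyp2s1 and Cyp4b1 (lowest adjusted p 0.159). Agilent's processed signals ended those of Cyp2b9 (adjusted p = 0.0793 in limma), Cyp11a1, Cyp2c55, Cyp3a57 and Cyp3a59 (0.0729 to 0.603 over the 5). Cy5 alone ended those of Cyp2b9 (-0.25, adjusted p = 0.217 in limma) and Cyp2c55 (0.426). No intensity trend ended those of Cyp11a1, Cyp2c23, Cyp2c55, Cyp3a16, Cyp3a57 and Cyp3a59 (0.0531 to 0.0978).

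**Figure D3:**
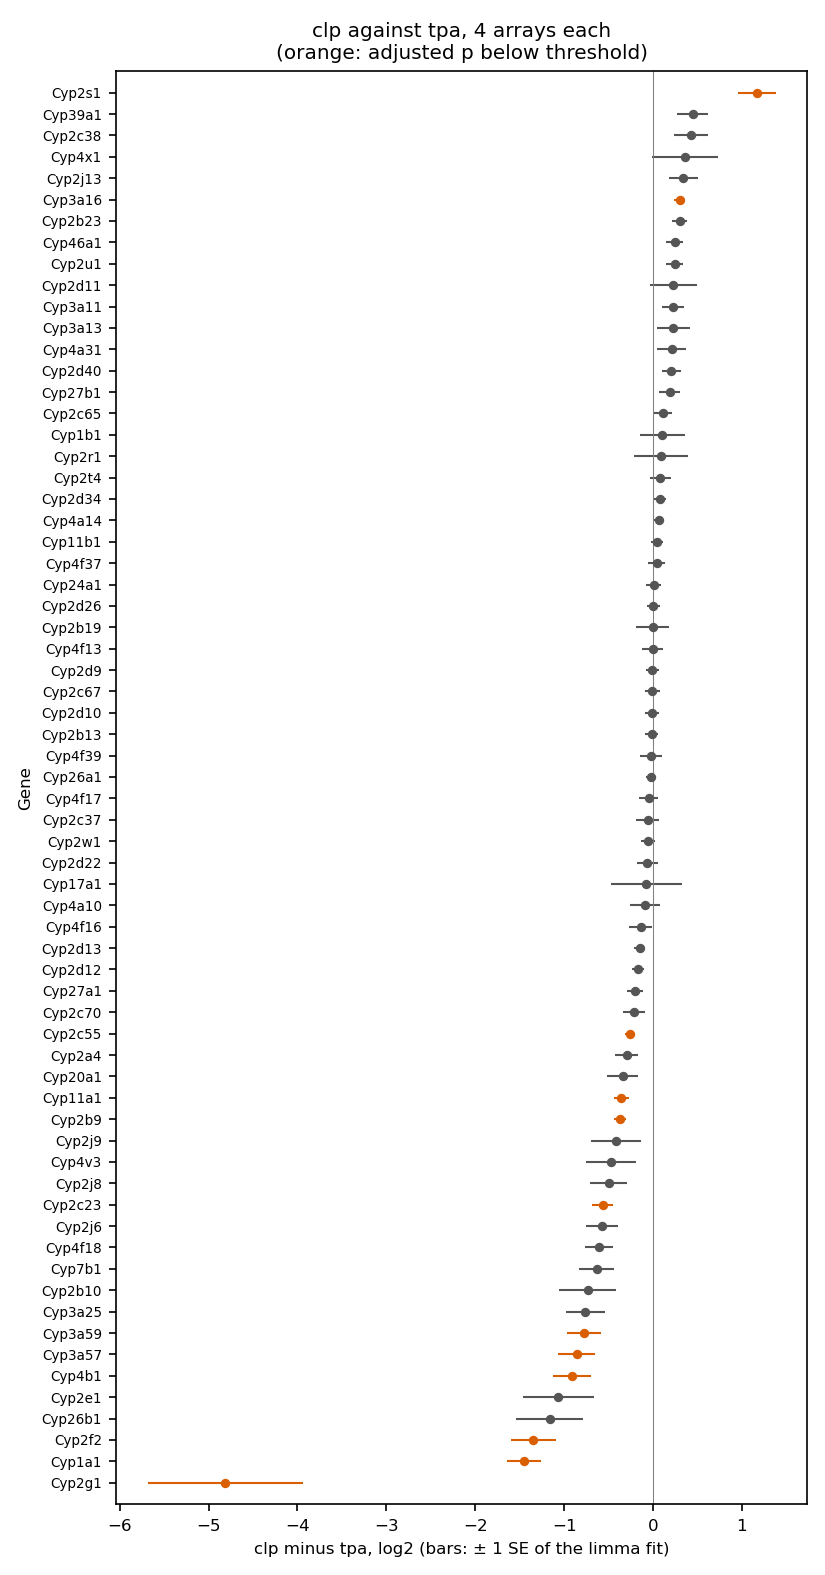
Difference between clp and tpa for each of the 66 P450 genes (horizontal axis, log2, clp minus tpa; bars are 1 SE of the limma fit, 4 arrays each), ordered by size. The 12 genes past the threshold are orange, 10 of them below 0; Cyp2g1 lies at -4.81 and Cyp2s1 at 1.17.

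Other markers moved in the same comparison, in which 3.62% of all features passed as higher in clp and 4.54% as lower. Between clp and tpa, 18 of 18 hair shaft and inner root sheath markers were higher in clp (5 past the threshold, median log2 2.88) and 5 of 5 melanocyte markers were higher (4 past it, median 1.94), while 5 of 5 macrophage markers were lower (4 past it, median -1.85) and 9 of 12 sebaceous gland markers were lower (4 past it, median -0.48). The median of the hair markers on single arrays ran from 0.15 to 2.29 in clp, from -3.40 to 1.30 in tpa and from -4.03 to 2.00 with no named treatment. That of the macrophage markers ran from -1.67 to -0.54 in clp, 0.41 to 1.00 in tpa and 0.39 to 0.76 with no named treatment, and that of the sebaceous markers from -0.77 to -0.07, 0.12 to 0.43 and -0.29 to 0.57. Macrophage markers therefore separated clp from both other groups without overlap. No defining macrophage, sebaceous or melanocyte marker was without signal, and their part in the P450 results was not tested.

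Against no named treatment, clp had 5 of 12 sebaceous, 4 of 5 macrophage, 3 of 9 epidermal and 2 of 6 adipocyte markers lower, and 2 of 18 hair and 2 of 5 melanocyte markers higher, against 3.5% of all features lower and 4.27% higher. Of the steroid gland markers, Star and Nr5a1 were higher in clp. Mc2r was above background on all 12 arrays and did not pass, and Hsd3b1 was above background on no array. Of the liver markers, Serpina1a was higher in clp than in tpa (1.74 ± 0.30 SE) and Alb was lower (-0.62 ± 0.13).

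On mouse chromosome 7, a run of Cyp2 genes and pseudogenes holds 17 entries in the RefSeq table, 12 of them P450 genes with a probe and 10 tested. Between clp and tpa, 3 of these 10 passed as lower (Cyp2b9, Cyp2g1 and Cyp2f2) and 1 as higher (Cyp2s1, at the end of the run), against 4.54% of all features lower and 3.62% higher. Genes next to Cyp2g1 gave other values. Cyp2b19, a keratinocyte arachidonic acid epoxygenase in the mouse and the nearest gene on one side of Cyp2g1, differed by -0.0044 ± 0.19 SE, and Cyp2b23, beside it, by 0.30 ± 0.09. Cyp2b10, the phenobarbital-inducible P450 of mouse liver, differed by -0.74 ± 0.32 without passing. Cyp2a22 and Cyp2a12 were above background on no array.

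**Figure D4:**
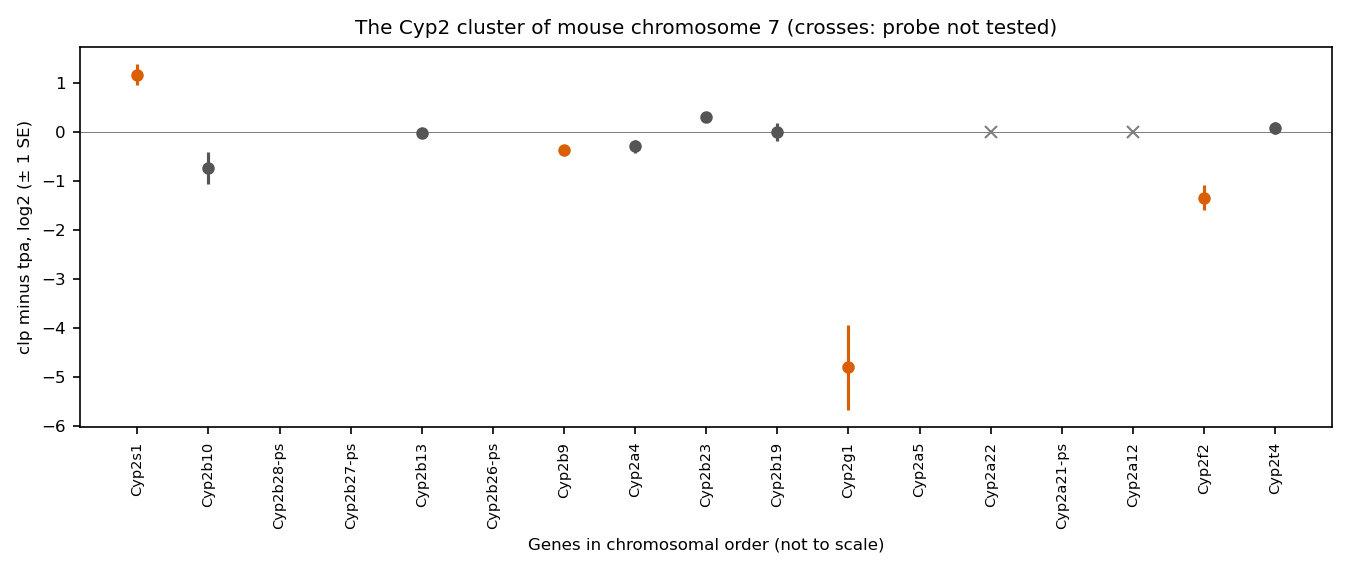
Difference between clp and tpa (vertical axis, log2, ± 1 SE, 4 arrays each) for the Cyp2 run of chromosome 7, with the 17 genes and pseudogenes in chromosomal order and not to scale. Orange marks the 4 genes past the threshold, crosses mark probes not tested (drawn at 0 with no value), and names without a symbol have no probe.

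The vitamin and barrier-lipid P450 genes showed smaller or more variable differences. Cyp26b1 lay at -1.72, -1.81, -1.88 and -2.62 in clp and at -0.73, -0.92, -1.31 and -0.41 in tpa. These groups did not overlap, but the difference of -1.16 ± 0.38 SE missed the threshold (adjusted p = 0.0937 in limma). Cyp26a1 differed by -0.02 ± 0.05 SE between clp and tpa and was above background on 2 clp arrays, 1 tpa array and no array without named treatment. Cyp2e1 behaved like Cyp26b1, with clp values from -0.73 to -0.11 below tpa values from 0.38 to 0.80 and a difference of -1.07 ± 0.40 SE (adjusted p = 0.138 in limma).

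For vitamin D, Cyp27b1, the activating hydroxylase, differed by 0.19 ± 0.12 SE in clp against no named treatment, by -0.0025 ± 0.12 in tpa and by 0.19 ± 0.12 between clp and tpa. Cyp24a1 differed by 0.09, 0.08 and 0.01 (each ± 0.08) and Cyp2r1, which carries out the first hydroxylation of vitamin D in liver, by 0.35, 0.26 and 0.09 (each ± 0.30) in the same order. None of the 3 passed, and a second Cyp2r1 probe gave opposite signs in clp and between clp and tpa (-0.21 and -0.25). Cyp1b1, a P450 that oxidises estrogens and aromatic pollutants, differed by 0.48, 0.38 and 0.10 (each ± 0.25) without passing.

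Cyp4f39, the mouse relative of the human hydroxylase of the very long fatty acids of skin ceramides, had log2 ratios of 0.68, 0.57, 1.05 and 0.99 with no named treatment (Eng+/- and wt at 90 days, then at 50 days). In clp they were 0.41, 0.27, 0.72 and 0.36, and in tpa 0.60, 0.40, 0.46 and 0.40. Every pair was lower in clp (-0.38 ± 0.12 SE, adjusted p = 0.0857 in limma) and in tpa (-0.36 ± 0.12 SE, adjusted p = 0.126 in limma), with overlapping groups. Cyp2b19, whose range over the arrays stayed below 1, differed by 0.16 ± 0.19 in both comparisons with no named treatment.

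Between genotypes no P450 gene and none of all features passed the threshold (0% called). At an unadjusted p below 0.05 there were 11 of 66 P450 genes (16.7%), against 13.3% of all features. The median difference was -0.0015 over the P450 genes and -0.01 over all features, with 32 positive and 34 negative. The 5 genes with the smallest p had limma adjusted p from 0.312 to 0.326. They were Cyp2c37 (-0.45 ± 0.11 SE on the log2 scale, Eng+/- minus wt), Cyp2j6 (0.51 ± 0.15), Cyp2b9 (0.19 ± 0.05), Cyp2u1 (-0.26 ± 0.08) and Cyp3a57 (0.51 ± 0.17).

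The matched pairs show how these differences varied. Cyp2j6 was higher in Eng+/- in all 6 pairs, by 0.44 and 0.37 with no named treatment at 90 and 50 days, 1.26 and 0.43 in clp, and 0.34 and 0.24 in tpa. Cyp2c37, an arachidonic acid hydroxylase, was lower in all 6, by -0.18, -0.74, -0.78, -0.60, -0.17 and -0.26 in the same order. It was above background on 5 Eng+/- and 4 wt arrays, and with Cy5 alone its genotype difference was 0.0249. The same sign in 6 of 6 pairs was found for 6 P450 genes (9.09%) and 6.87% of all features. Cyp2g1 changed sign between pairs, with 1.99 and -0.10 with no named treatment, -4.58 and -2.34 in clp and 0.56 and -0.16 in tpa, and its genotype difference was -0.77 ± 0.71 SE (adjusted p = 0.661 in limma).

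The series text selects genes at least 2-fold apart between Eng+/- and control. In at least 1 pair, 17 P450 genes (25.8%) met that, against 17.4% of all features, and no P450 gene met it one way in 4 or more pairs, against 0.678% of all. In the pair with no named treatment at 90 days, 10 P450 genes were at least 2-fold higher in Eng+/- and 1 lower, and in the other 5 pairs between 0 and 2 were higher and between 0 and 3 lower. That pair holds the array that stood apart above. Cyp2e1 was 2.37 log2 units higher in Eng+/- there and between -0.38 and 0.43 in the others. The genotype differences of Cyp1a1 (0.18 ± 0.16 SE), Cyp1b1 (-0.07 ± 0.21), Cyp26a1 (-0.02 ± 0.04), Cyp26b1 (0.20 ± 0.31), Cyp24a1 (-0.07 ± 0.07), Cyp27b1 (0.03 ± 0.10), Cyp2r1 (-0.20 ± 0.25), Cyp2e1 (0.41 ± 0.33) and Cyp4f39 (0.16 ± 0.10) did not pass.

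**Figure D5:**
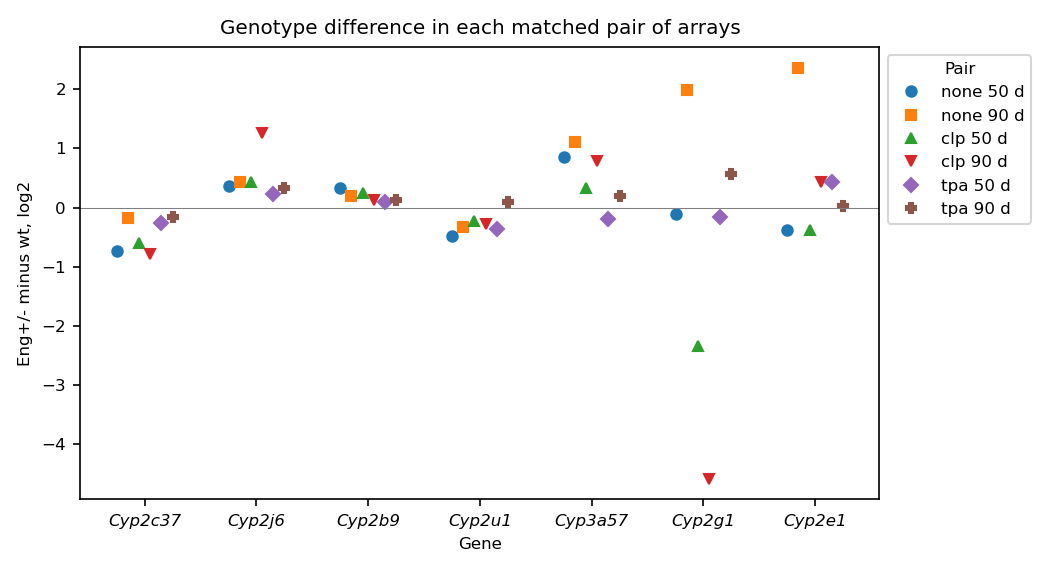
Difference between Eng+/- and wt (vertical axis, log2) in each of the 6 matched pairs of arrays for the 5 P450 genes with the smallest genotype p and for Cyp2g1 and Cyp2e1. The 6 pairs of Cyp2j6 all lie above 0 (0.24 to 1.26) and those of Cyp2c37 all below, while Cyp2g1 runs from -4.58 to 1.99.

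Day 90 against day 50 gave no P450 gene past the threshold within any treatment level, and none of all features (0% each). At an unadjusted p below 0.05 there were 3 P450 genes with no named treatment (4.55%, against 5.49% of all features), 9 in clp (13.6%, against 12.6%) and 1 in tpa (1.52%, against 5.76%). In clp, Cyp1a1 was higher at 90 days by 1.28 in Eng+/- and 0.89 in wt (mean 1.09 ± 0.27 SE, adjusted p = 0.290 in limma), Cyp3a16 was lower (-0.48 ± 0.09), and Cyp2u1 (0.48 ± 0.13), Cyp4a14, a peroxisome proliferator-induced fatty acid hydroxylase (-0.28 ± 0.09), and Cyp7b1, an oxysterol hydroxylase (0.75 ± 0.28), followed. Cyp2u1 was above background on no clp array at 50 days, and Cyp3a16 on only 1 clp array at 90 days, so these values are close to the background. The Cyp2g1 difference by day in clp was 1.21 ± 1.23 SE, with 0.09 in Eng+/- and 2.33 in wt.

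With no named treatment the smallest p belonged to Cyp2f2 (0.87 ± 0.36 SE), Cyp2c23 (0.39 ± 0.17), Cyp4f39 (-0.39 ± 0.17), Cyp11a1 (0.26 ± 0.12) and Cyp27b1 (-0.35 ± 0.17), and in tpa to Cyp2d40 (-0.40 ± 0.16), Cyp2s1 (0.65 ± 0.30), Cyp2a4, a steroid hydroxylase (-0.35 ± 0.18), Cyp11a1 (-0.22 ± 0.12) and Cyp2j6 (-0.44 ± 0.25). Whether the day difference varied with treatment was tested directly, and no P450 gene passed (smallest limma adjusted p 0.221; 8 at an unadjusted p below 0.05, against 13.6% of all features). The same held for genotype by day (smallest limma adjusted p 0.984; 1 at an unadjusted p below 0.05, against 3.58% of all features).

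Genes of pathways related to P450 enzymes were counted by list. None passed in tpa or between genotypes. Of all features, 3.5% passed as lower and 4.27% as higher in clp against no named treatment, and 4.54% and 3.62% between clp and tpa. In the aryl hydrocarbon receptor list of 8 genes, Ahr itself was lower in clp than with no named treatment (-0.96 ± 0.17 SE, adjusted p = 0.0212 in limma), and its repressor Ahrr was lower in clp than in tpa (-0.68 ± 0.16, adjusted p = 0.0375 in limma). The list medians were -0.26 and -0.22, against 0.01 and 0.05 over all features. Of 11 genes for electron transfer and heme, only Cyb5b, the outer mitochondrial cytochrome b5, passed, lower in clp in both comparisons (-0.80 ± 0.15 and -0.58 ± 0.15).

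Of 16 lipoxygenase and fatty acid oxidation genes, 4 were lower in clp than with no named treatment: the leukotriene-forming Alox5 (-1.29 ± 0.20 SE), Alox15 (-0.56 ± 0.12), the epoxide hydrolase Ephx2 (-0.56 ± 0.13), which acts on the products of P450 epoxygenases, and the thromboxane synthase Tbxas1 (-0.86 ± 0.22). Alox5, Alox15 and Tbxas1 were also lower in clp than in tpa (-1.07 ± 0.20, -0.59 ± 0.12 and -1.23 ± 0.22). Tbxas1 is itself a P450 enzyme, but its symbol does not begin with Cyp, so it was not counted among the P450 genes. The list medians were -0.24 and -0.28.

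Of 23 vitamin A genes, the retinol-oxidising Adh7 was lower in clp than with no named treatment (-0.75 ± 0.19 SE), and the retinol transporter Stra6 and the dehydrogenase Dhrs9 were higher in clp than in tpa (2.16 ± 0.46 and 0.48 ± 0.12). The list medians were -0.08 and 0.05. Of 16 conjugation genes, Gclc and Gclm, which make glutathione, were higher in clp than with no named treatment (1.86 ± 0.35 and 0.66 ± 0.15), and against tpa the glutathione transferases Gsta3 and Gstm1 were lower (-1.23 ± 0.28 and -0.70 ± 0.16) and the glucuronosyltransferase Ugt1a6a was higher (0.45 ± 0.11). Their medians were 0.03 and -0.28.

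Of 9 xenobiotic nuclear receptors tested, the lipid-sensing Ppara was higher in clp than in tpa (0.62 ± 0.15 SE), with list medians of -0.01 and -0.18. Of 14 steroid genes tested, Star, the mitochondrial cholesterol carrier, was higher in clp than with no named treatment (0.35 ± 0.09), with medians of 0.04 and -0.04. None of 18 vitamin D and sterol-sensing genes passed in either comparison, with medians of -0.07 and -0.04. The clp comparisons share their clp arrays, so the values stand side by side and are not independent of each other.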

How the data were processed

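RNA of 12 samples was measured on Agilent 4x44K mouse arrays (design 026655, probe annotation mm9, per the file headers). The deposited scanner files hold foreground and background intensity values of both channels. The value table holds the authors' log10 ratio of Cy5 to Cy3, which equalled the scanner files' ratio on every spot (largest difference 0). Per the submitters' processing notes, Agilent Feature Extraction 10.0 was used, and per the file headers its version was 10.7.3.1. Dye swaps and another scanner, named in the series text, appear in no array label or header.

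Median intensities were processed in R 4.3.3 with limma 3.58.1 (normexp with an offset of 50, loess within arrays, control spots at weight 0). Probes with an outlier flag (975 of 39429) were left out. Accessions were named through RefSeq, which gave 25082 features with a Cy5 signal well above background on at least 2 arrays. One fit in limma on all 12 arrays, with a term for genotype and for each of the 6 combinations of treatment and day (5 residual degrees of freedom, prior 4.16, eBayes with an intensity trend) gave two-sided p-values, adjusted by the Benjamini-Hochberg method over all features with a threshold of 0.05. A second model with all 2-way interactions tested genotype by day. With 1 array per group, the spread comes from differences that the model's terms do not take up, and lone arrays are assumed to vary alike. The small number of arrays limits the precision. The comparisons share arrays (clp and tpa share those with no named treatment).

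The P450 genes and the gene lists were chosen with earlier results of these data known. Named were the P450 genes past the threshold, or the 5 with the smallest p where fewer than 5 passed, a set of P450 genes of skin, xenobiotic and vitamin metabolism, and at most 4 genes past the threshold per list. Others are named where a range, a limit or the chromosome 7 run called for it, and those were chosen after their values were seen. The alternatives were median centring, Agilent's processed signals, Cy5 alone, other filters and probe rules, no intensity trend, and leaving out arrays.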

Additional observations from a re-analysis of the deposited data

Results flagged for a closer look

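For some P450 genes the Cy3 signal of the pool was well above background on at least 1 array although the Cy5 signal of the samples was above background on none. For Cyp2c66 this was so on 6 arrays, for Cyp19a1, the aromatase, on 3 and for Cyp26c1 on 1. For Cyp21a1, an adrenal steroid hydroxylase, the Cy5 signal was well above background on 12 arrays, but the probe carried an outlier flag on at least 1 array and entered no comparison. The causes were not tested.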

How the results depend on the processing

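Over the alternatives tried, the number of P450 genes passing in clp against no named treatment, 5, was 2 with median centring (6.35% of all features passed), 10 with the processed signals (16.3%), 25 with Cy5 alone (24.6%), 0 to 6 without 1 array (0.0120 to 17.98%), and 0 without both wt arrays of no named treatment at 50 days and clp at 90 days (0.0319%), an alternative chosen after seeing the data. With every probe, the mean of a gene's probes, both channels above background or no intensity trend, 4 passed in clp (4.66, 7.82, 9.05 and 8.62%). The rule of both channels above background left 56 P450 genes to test. Cyp2b9, Cyp2c23, Cyp2c55 and Cyp3a16 were not among them, so under that rule their calls were not tested. With every probe, probes and not genes were counted. Between clp and tpa, 12 became 8 with median centring (6.5%), processed signals (6.63%) or both channels above background (7.99%). It became 7 with no intensity trend (6.42%), 13 with Cy5 alone (9.38%) and 14 with the mean of a gene's probes (8.5%). Without 1 array it was 1 to 17 (0.813 to 11.9%), and 2 without that pair of wt arrays (1.32%). In tpa, 0 became 4 with median centring (4.13%) and 0 to 17 without 1 array (0 to 19.8%). The counts for genotype, for day and for day by treatment stayed at 0 under the alternatives run. Leaving out arrays was not tried for genotype by day. Median centring moved the median of all features to 0.24 in clp and 0.34 in tpa. With median centring, reversed log2 differences were 0.18 for Cyp2c55 between clp and tpa, -0.33 for Cyp2c55 in tpa, 0.0433 for Cyp4a31 in clp and 0.0546 for Cyp4f39 by day without a named treatment. Processed signals gave -0.14 for Cyp11a1 by day with no named treatment and 0.0279 for Cyp2u1 between genotypes. With Cy5 alone they were 0.19 for Cyp2b23 in tpa, 0.0249 for Cyp2c37 and 0.0220 for Cyp2u1 between genotypes, 0.67 for Cyp4a10 in clp, and 0.63 in clp and 0.19 in tpa for Cyp4a31. The cause was not tested. The labels carry no replicate numbers, so no term for replicate was fitted. The model compares genotypes within each combination of treatment and day. Genes whose pool signal is not above background (Cyp2b9, Cyp2c23, Cyp2c55 and Cyp3a16) are limited by signal.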
